A study of Caenorhabditis elegans with 2 samples.

Results

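Of the 2586 reproducible binding peaks of the C. elegans zinc finger protein T20F7.1, 449 lie on the X chromosome. Their location, strength, sequence and neighbouring genes are described here. Members were chosen by chromosome alone, from the authors' list of peaks kept by an irreproducible discovery rate (IDR) threshold, a comparison of peak ranks between replicates, and they were compared with the 2137 peaks on the 5 autosomes. The data are chromatin immunoprecipitation with sequencing (ChIP-seq) from whole L4 larvae of strain OP754, which carries the integrated transgene wgIs754 with T20F7.1::TY1::EGFP::3xFLAG and unc-119(+) in an unc-119 (tm4063) mutant background. All samples were of this 1 genotype, with no further treatment. The animals were 48 hours old and of both sexes, pooled, and had been synchronised by starvation at L1 after bleaching. Chromatin was sheared by sonication and precipitated with an antibody against GFP, so the fusion protein and not the native one was pulled down. There were 2 biological replicates. No input or untagged control was analysed here, and the share of males in the pools is not known, although males carry a single X. Position and identity of the summits, the highest points of the peaks, are on assembly ce11.

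In C. elegans hermaphrodites the dosage compensation complex, a condensin-like assembly, lowers transcription from both X chromosomes. It is loaded at recruitment elements that hold copies of a short motif whose core is GCGCAGGG, and it then spreads along the chromosome. The X carries few genes expressed in the germ line and few essential housekeeping genes, and it is rich in tRNA genes. Transfer RNA genes are transcribed by RNA polymerase III from promoters inside the gene, called the A box and the B box. T20F7.1 is described in the reference annotation as a protein with a C2H2-type domain, and its own gene also lies on X.

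Sequences around X summits are shown first, for the strongest peaks and for the words that the results turn on. Each line gives the plus strand of the WBcel235 sequence (the same as ce11), 5′ to 3′, for 50 bp on either side of a summit. Capitals mark the words GCGCAGGG (the recruitment motif core), CTGCGTCTC, ACACTC and ACGCGC (from earlier results), GAGAGAGA (a simple repeat) or GTTCGANNC (the B box), or their reverse complements (CCCTGCGC is GCGCAGGG on the minus strand). The 4 strongest X peaks all lie in promoters, at F02C12.3 (chrX:13396702-13396802), acl-1 (chrX:15849525-15849625), asb-2 (chrX:4469446-4469546) and nucb-1 (chrX:10197426-10197526). The promoter peak of hsp-3 (chrX:6092151-6092251) is shown because, like that of asb-2, it holds CTGCGTCTC.
F02C12.3: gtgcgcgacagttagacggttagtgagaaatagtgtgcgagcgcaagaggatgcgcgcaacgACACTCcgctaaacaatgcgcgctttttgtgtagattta
acl-1: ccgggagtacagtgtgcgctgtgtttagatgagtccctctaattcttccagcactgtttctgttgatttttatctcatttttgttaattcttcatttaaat
asb-2: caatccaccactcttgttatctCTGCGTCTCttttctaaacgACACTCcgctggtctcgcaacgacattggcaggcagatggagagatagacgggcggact
nucb-1: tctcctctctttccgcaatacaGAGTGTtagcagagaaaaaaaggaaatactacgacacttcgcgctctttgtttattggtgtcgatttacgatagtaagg
hsp-3: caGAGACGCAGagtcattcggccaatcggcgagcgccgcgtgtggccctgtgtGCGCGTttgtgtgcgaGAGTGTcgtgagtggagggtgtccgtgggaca

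GCGCAGGG lies close to the summit of the next 5 regions, which include the 3 strongest X peaks with it within 50 bp of the summit. They are an intron of Y41G9A.17 (chrX:2997058-2997158), intergenic sequence whose nearest gene start is that of W02H3.3 (chrX:11094143-11094243) or of nspc-17 (chrX:14525881-14525981), an intergenic region near gtr-1 that holds GCGCAGGG and CTGCGTCTC together (chrX:806640-806740), and a region upstream of xol-1 (chrX:8036353-8036453). The last was chosen after its values were seen, because xol-1 is the switch gene of sex determination and dosage compensation. It carries the word on each strand. The final line is a summit inside the tRNA-Val gene R04D3.t2 (chrX:13307036-13307136), with the B box word at its centre.
Y41G9A.17 intron: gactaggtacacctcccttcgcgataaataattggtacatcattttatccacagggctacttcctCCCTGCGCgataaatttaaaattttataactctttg
W02H3.3 side: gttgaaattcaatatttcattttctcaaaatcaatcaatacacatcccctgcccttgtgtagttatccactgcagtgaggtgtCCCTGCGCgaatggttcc
nspc-17 side: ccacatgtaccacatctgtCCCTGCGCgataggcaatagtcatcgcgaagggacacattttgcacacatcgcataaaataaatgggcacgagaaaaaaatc
gtr-1 side: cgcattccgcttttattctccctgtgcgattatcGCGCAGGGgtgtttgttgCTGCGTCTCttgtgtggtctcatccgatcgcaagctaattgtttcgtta
xol-1 upstream: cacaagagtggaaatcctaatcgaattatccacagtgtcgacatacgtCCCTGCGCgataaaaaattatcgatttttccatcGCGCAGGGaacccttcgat
R04D3.t2: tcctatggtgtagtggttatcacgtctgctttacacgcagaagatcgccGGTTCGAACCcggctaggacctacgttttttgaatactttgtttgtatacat

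The X held 25.3 peaks per Mb (exact Poisson 95% interval 23.1 to 27.8), within the range of the autosomes, from 20.3 on V to 31.8 on III. Throughout, X is said to differ only where its value lay outside the range of the 5 autosomes and the 95% interval of its difference from the autosomes together left out 0, in the IDR list and in the 2586 strongest regions of each replicate alone. Peaks and genes are not replicates, so these intervals cover the sampling of peaks or genes within this pair of libraries, and no p-value is given. Some peaks are separate summits of the same listed region, as at chrX:8036095-8036690. Each summit was counted as a peak, and the intervals do not allow for this. The lists give no read counts, so the depth is unknown.

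Candidate regions as a whole, most of them weaker than the peaks, were denser on X. The authors' list of 30000 candidates of the pooled replicates had 7049 on X, or 398 per Mb, against 237 to 341 per Mb on the autosomes, a ratio of 1.43 to the autosomes together (1.39 to 1.47). Replicate 1 gave a ratio of 1.41 and replicate 2 of 1.43. Of all pooled candidates 8.62% were kept in the IDR list, and of those on X 6.37% (Wilson 95% interval 5.82 to 6.96) against 9.31% of the autosomal ones (difference -2.94 percentage points, -3.61 to -2.24). X had the lowest share of the 6 chromosomes, but it could not be told from V, where 6.86% were kept (difference -0.487, -1.34 to 0.359). A replicate alone has no IDR list, so its strongest regions were taken instead, as many as the IDR list holds. Of each replicate's own X candidates, 6.44% in replicate 1 and 6.26% in replicate 2 were among them, again the lowest share of the 6 chromosomes. These replicate values measure rank by signal and not retention by IDR.

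Promoters held fewer of the X peaks than of the peaks on any autosome. The summit lay in a promoter window, from 500 bp upstream to 100 bp downstream of the start of a protein-coding gene, for 147 X peaks (32.7%, 28.6 to 37.2) against 1041 autosomal peaks (48.7%), and the autosomes ranged from 45.4% to 52.5%. The difference was -16.0 percentage points (-20.7 to -11.03), and -17.5 and -15.3 in replicates 1 and 2. Intergenic summits were more frequent instead, with 165 on X (36.7%, 32.4 to 41.3) against 22.1%, a difference of 14.6 points (9.92 to 19.5). Introns held 90 X summits (20.04% against 18.9%), 3′ UTRs 17, coding exons 7 and 5′ UTRs 5, and none of these classes differed by the rule. Non-coding genes held 18 (4.01%) against 2.20% (difference 1.81, 0.186 to 4.11), which did pass it. This class includes tRNA genes, described below. Of the 18 on X, 11 lay within 250 bp of a tRNA gene, against 6 of the 47 on the autosomes. It is thus not a result separate from that for tRNA genes.

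**Figure D1:**
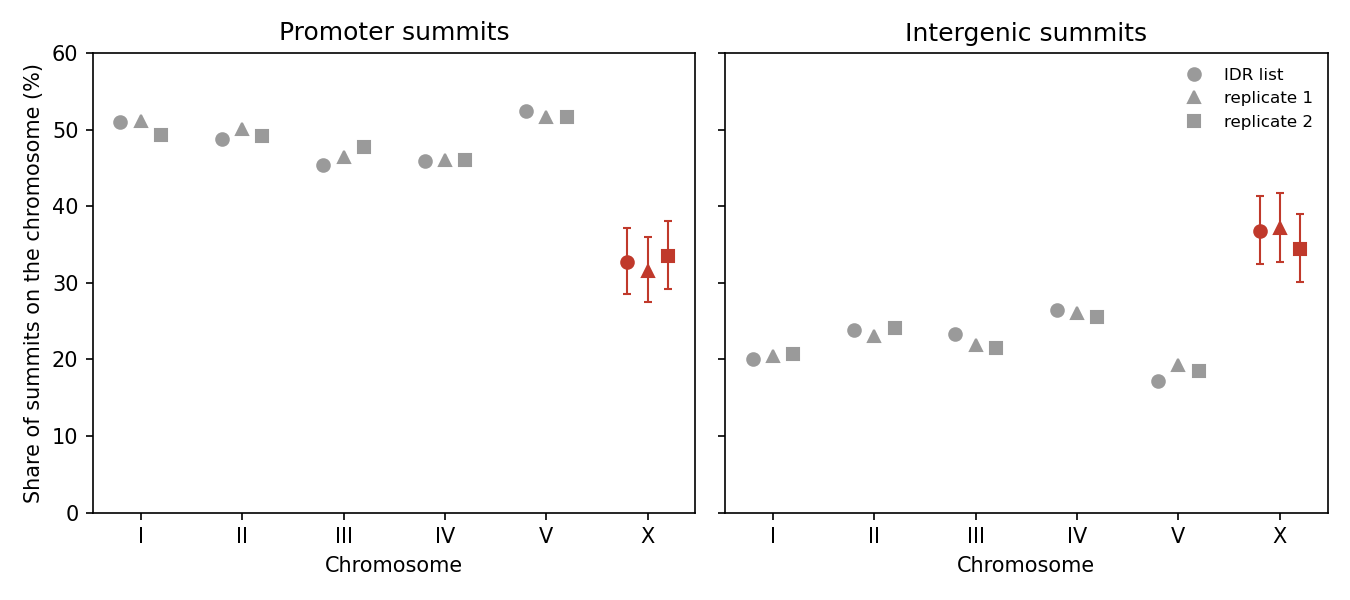
Share of summits (%) in promoter windows (left) and in intergenic sequence (right) for each chromosome, with X in red and autosomes in grey; circles are the IDR list, triangles and squares the 2586 strongest regions of replicates 1 and 2, and bars on X are Wilson 95% intervals. X lies below every autosome for promoters (32.7% in the IDR list) and above every autosome for intergenic sequence (36.7%).

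These classes cover different amounts of sequence, and promoter windows cover a smaller part of X than of any autosome. Relative to the share of sequence in each class, a comparison added after seeing the data, promoters on X held 3.63 times as many summits as their length alone gives (3.17 to 4.13), against 4.16 on the autosomes together and 3.86 to 4.80 on single autosomes. X was lowest in the IDR list and in both replicates (3.50 and 3.72), but the interval of the difference from the autosomes reached 0 (-0.526, -1.02 to 0.00238), so the promoter share did not differ by the rule once scaled for length. For intergenic sequence the same ratio was 1.06 on X, within the autosomal range of 0.700 to 1.08. The nearest protein-coding gene start was a median of 2148 bp from the intergenic X summits and 1557 bp from the autosomal ones. More than 2 kb away were 86 of the 165 (52.1%, against 38.1%, difference 14.1 points, 5.27 to 22.7), but with replicate 2 alone the interval included 0 (8.57, -0.369 to 17.6), so this did not pass the rule.

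Promoter peaks on X more often lay in the window of a single gene. Only 13 of the 147 (8.84%, 5.24 to 14.5) lay in the windows of several genes at once, against 282 of 1041 (27.1%) on the autosomes, a difference of -18.2 points (-22.8 to -11.98). Such windows were also scarcer on X, where 2.74% of promoter-window bases belonged to several windows, against 5.55% to 8.54% on the autosomes. Relative to that share the ratio was 3.23 on X, within the autosomal range of 2.98 to 5.01 (difference from the autosomes together -0.614, -1.99 to 1.50), so the difference did not hold once scaled, a comparison added after seeing the data. Examples on X are tbc-1 with flwr-1 and trap-2 with ile-2, both pairs described below. Placement within the promoter was like that elsewhere, with a median summit position of -191 bp relative to the start on X (quartiles at -306 and -118 bp) and of -169 bp on the autosomes.

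X peaks were somewhat weaker. The signal value, the authors' measure for each region on a scale not given in the sources used here, serves only to rank regions within a list. Its median was 133 on X (quartiles 109 and 200) and 146 on the autosomes, and 43.2% of X peaks lay above the median of the whole list against 51.4% (difference -8.22 points, -13.2 to -3.14). The call was lost among the stronger 50% of peaks (-7.23) and among those with a −log10 q of at least 2 (-7.01). Promoter peaks on X had a median of 145 and intergenic ones of 128. Values reached down to 95.6 at the vit-3 promoter (rank 2584 of 2586) and up to 2669 at F02C12.3.

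**Figure D2:**
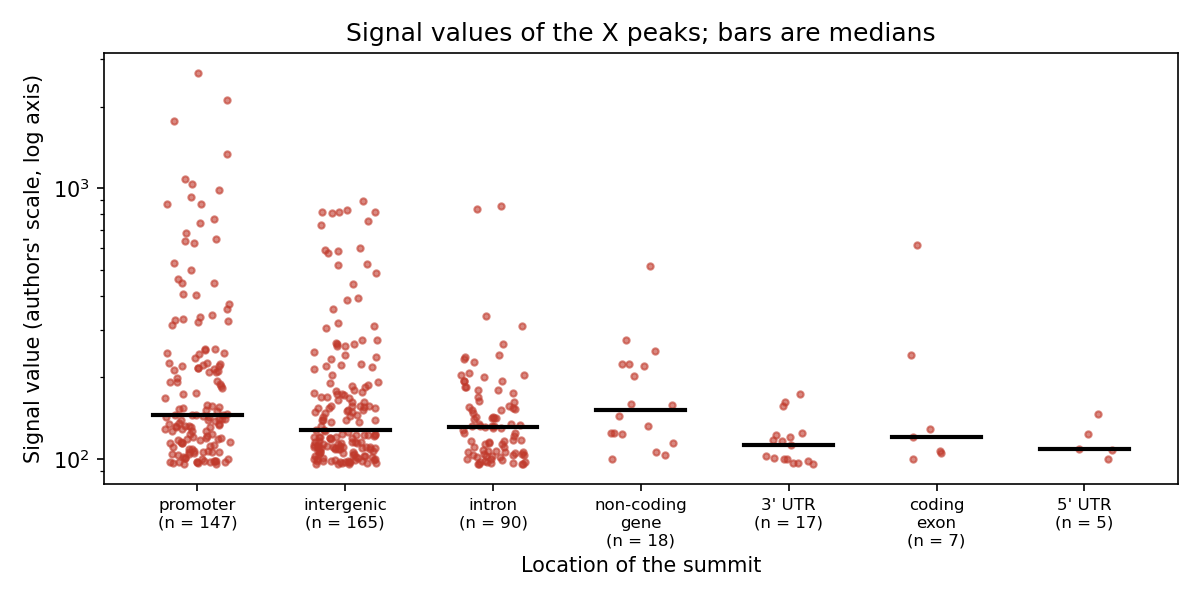
Signal value (the authors' scale, log axis) of each of the 449 X peaks by the location of its summit, with the number of peaks under each class and a bar at the median. Promoter peaks reach 2669 and intergenic peaks 894, while 3′ UTR and 5′ UTR peaks stay at or below 173.

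Outside promoters, the strongest X peaks by class were intergenic (894, nearest to K02D3.1), in an intron of mom-1 (861), in the coding exon of pks-1 (614), in a non-coding gene whose nearest protein-coding start is that of ftt-2, a 14-3-3 protein (517), in a 3′ UTR of C42D8.9 (173) and in a 5′ UTR of K10B3.5 (146), all as pooled signal values. Peaks in UTRs were thus few on X, and each was below the median of the GCGCAGGG peaks described below.

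Replicates ranked the X peaks alike at the top and less so near the limit. Of the X peaks, 280 (62.4%) had a summit within 100 bp among the strongest 2586 regions of both replicates, against 65.2% of autosomal peaks, which did not differ by the rule. In the stronger 50% the share was 95.4%. At the 425 X peaks matched in both replicates' full lists the Spearman correlation across peaks was 0.682, against 0.735 to 0.788 on the autosomes. The median log2 ratio of replicate 2 to replicate 1 was 0.05. Because peaks share their libraries, the correlation is a description of these peaks.

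**Figure D3:**
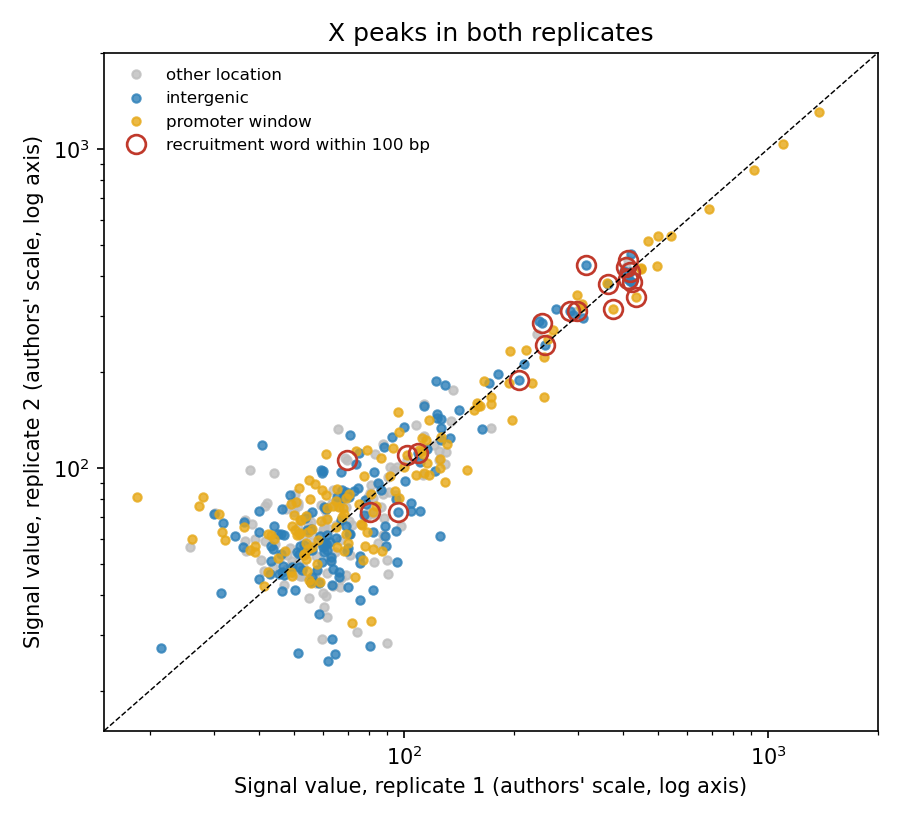
Signal value of X peaks in replicate 1 (horizontal) and replicate 2 (vertical), both on log axes in the authors' scale, with promoter, intergenic and other summits in separate colours and red rings around peaks with the recruitment word within 100 bp of the summit; the dashed line marks equal values. Of the 19 ringed peaks, 14 are among the strongest 20% of all peaks, and the 4 highest points are promoter peaks led by F02C12.3.

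X peaks were spread along the chromosome, without the central concentration of autosomal peaks. Cut into 3 equal lengths, X held 167 of 449 peaks in the middle one (37.2%, 32.9 to 41.8), against 58.7% on the autosomes (53.3% to 66.5%), a difference of -21.5 points (-26.3 to -16.5). The left one held 123 and the right one 159. Cut into 10 equal lengths, X ranged from 6.24% to 12.7%, while the autosomes ranged from 1.41% to 23.7%. Gene starts were more evenly placed on all chromosomes, with 35.7% of those on X and 36.0% to 40.6% of those on the autosomes in the middle length. Single full megabases of X held 15 to 41 peaks, the most in the seventh, and the incomplete last one held 12.

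**Figure D4:**
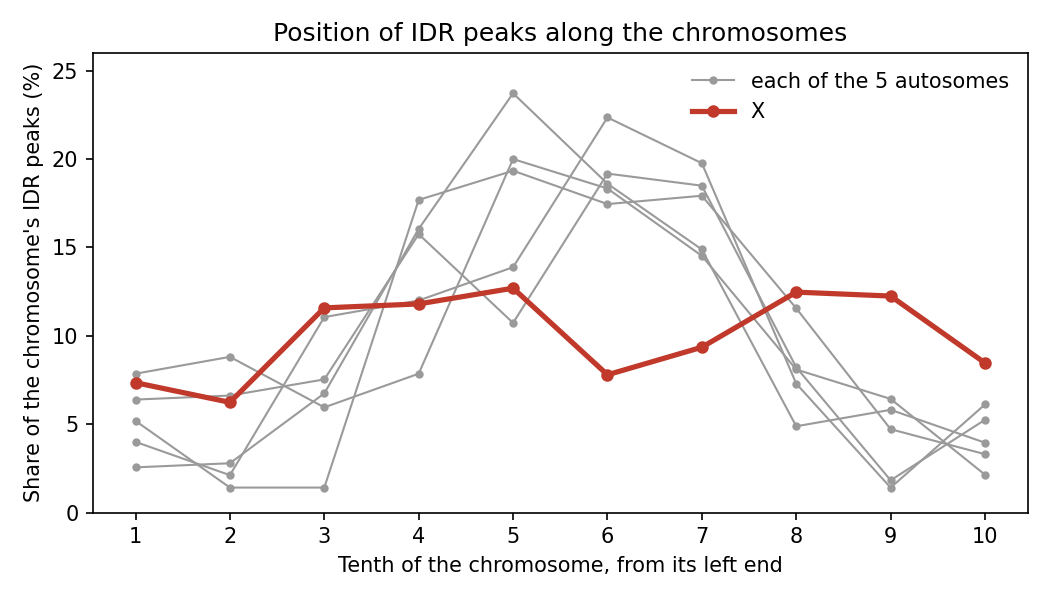
Share of each chromosome's IDR peaks (%) in each of 10 equal lengths from the left end, for X (red) and each autosome (grey). X stays between 6.24% and 12.7%, while every autosome rises towards its centre, up to 23.7% on I.

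Genes with a promoter peak were 158 of 2731 on X (5.79%, 4.97 to 6.72) against 1302 of 17242 on the autosomes (7.55%), beside 7.31% of all protein-coding genes. The share on V was lower still (5.55%), so X did not differ by the rule. It did among the stronger 50% of peaks (-2.05 points), among peaks with a −log10 q of at least 2 (-2.08), and with the narrow window from 250 bp upstream to 50 bp downstream (-1.44).

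The strongest X promoter peak, at F02C12.3, an uncharacterised protein, had a signal value of 1382 in replicate 1 and of 1303 in replicate 2 and ranked 10 among all peaks, with its summit at chrX:13396752. That at acl-1, a putative acyltransferase of phospholipid synthesis, had 1098 and 1035. The peak at asb-2, a subunit of mitochondrial ATP synthase, had 914 and 859. These 3 stood in the same order in both replicates. Next came nucb-1, which encodes a nucleobindin-like protein, with 690 and 647, and Y34B4A.2, similar to the UV radiation resistance-associated protein, with 540 and 533. A RING-domain protein, F54B11.5, had 500 and 533. All of these peaks were single-gene promoters.

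Some of the other strong X promoters belong to genes with known roles in secretion and membrane traffic, a grouping made after their values were seen. The stress-associated endoplasmic reticulum protein serp-1.1 had 469 in replicate 1 and 516 in replicate 2. The divergent pair tbc-1, a TBC1-domain protein, and flwr-1, a homologue of the calcium channel flower, shared a peak with 447 and 425. The GRIP-domain protein gcc-1 had 435 and 344, and apm-3, a subunit of an adaptor complex of vesicle coats, had 376 and 316. Retrograde tethering factor vps-52 had 308 and 328. The endoplasmic reticulum chaperone hsp-3, a homologue of BiP, had 256 and 271. Translocon-associated trap-2 shared with the lectin ile-2 a peak with 248 and 254, and the endocytic adaptor epn-1 had 195 and 233. No list of secretory genes as a whole was compared. Among 21 X members of the vesicle trafficking list 3 had a promoter peak (apm-3, vps-52 and sec-15), against 24 of 103 on the autosomes. These counts stand beside 5.79% of all X genes and 7.55% of all autosomal genes. The sec-15 summit lies 33 bp from the tRNA-Glu gene C28G1.t1.

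Other genes among the 25 strongest X promoter peaks encode regulators and enzymes. F40F4.7, an N-terminal acetyltransferase, had 496 and 430, the UBX-domain protein H40L08.1 had 447 and 422, and the MYND-domain protein bra-1 had 361 and 380. The COMM-domain protein F59D12.5 had 299 and 348, and puf-9, an RNA-binding protein of the Pumilio family, had 307 and 319. Near the lower end of the 25 were the sop-2 relative sor-3 (243 and 224), the mitochondrial fission factor F11C1.7 (216 and 235), the DOCK-type protein F46H5.4 (225 and 184), nipi-3, a Tribbles-like pseudokinase (242 and 167), the ribosomal protein rpl-11.2 (194 and 185) and the WD-repeat protein sym-4 (166 and 188). Replicates of nipi-3 and F46H5.4 were the least alike of these, both higher in replicate 1.

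Gene lists written by name were counted on X and on the autosomes, against 5.79% of all X genes and 7.55% of all autosomal genes. Respiratory chain and ATP synthase genes had a promoter peak at 4 of 6 on X and at 15 of 45 on the autosomes. The X members were asb-2, sdha-1 (the succinate dehydrogenase flavoprotein, 97.1 and 80.3), asg-2 (79.3 and 114, in a window shared with the glutamate receptor glr-6) and ucr-2.1 (68.3 and 71.4, shared with nmat-1). gas-1, a complex I subunit, and ucr-2.2 had none. The cytoplasmic ribosomal protein list has 2 X genes, of which rpl-11.2 had a peak and rpl-25.1 had none, against 45 of 79 on the autosomes. Translation factors and tRNA synthetases had 1 of 3, the elongation factor eef-1A.2 (159 and 157), against 17 of 68. The only X gene of the splicing list, snrp-40.1, had a weak peak (53.2 and 53.7), against 18 of 47.

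Nuclear hormone receptor genes, ligand-regulated transcription factors in other animals, had a peak at 4 of 23 on X and 11 of 246 on the autosomes. These were nhr-35 (131 and 118.9), nhr-255 (91.5 and 94.4), nhr-45 (55.7 and 64.5) and nhr-28 (42.3 and 61.97). The summit counted for nhr-255 lies inside the tRNA-Leu gene ZK678.t1, at -489 bp from the nhr-255 start. Whether peaks of autosomal list members lie beside tRNA genes was not examined. Vitellogenins, the yolk proteins made in the hermaphrodite intestine, had 2 of 5 on X, vit-2 (55.8 and 56.3) and vit-3 (42.2 and 47.3), both weak. Chaperones had 2 of 5 on X (hsp-3 and dnj-14) and 16 of 61 on the autosomes. Ubiquitin genes had 2 of 8 (ubc-21 and ubc-22, from 1 shared peak) and 14 of 59, and detoxification enzymes 2 of 14 (gst-42 and ugt-50) and 9 of 171. Ion channels had 2 of 54 (glr-6 and lgc-25) and 2 of 170, and the vacuolar ATPase 1 of 3 (vha-12) and 7 of 18. The lgc-25 summit lies 12 bp from the tRNA-Asp gene R03E1.t2. No promoter peak was found at 15 muscle sarcomere, 36 neuropeptide and insulin, 24 homeobox, 30 cuticle collagen, 28 chemoreceptor, 17 F-box or MATH-BTB or 4 heterochronic genes on X. The autosomal members of these lists had, in that order, 1 of 37, 1 of 107, 2 of 72, 1 of 150, 7 of 1143, 12 of 378 and 2 of 8. With so few genes in a list these counts describe the lists and are not tests.

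The X-linked genes that read or set X dosage were too few to compare. The X signal elements sex-1, fox-1 and ceh-39, the switch gene xol-1, and sdc-1 and sdc-2, which direct the dosage compensation complex to X, all lacked a promoter peak, 0 of 6 genes beside 5.79% of all X genes. Among the 8 autosomal genes of the dosage compensation list 3 had one, namely dpy-26 (signal value 981), dpy-30 (234) and capg-1 (133), and among 14 autosomal sex determination genes 0 had one, beside 7.55% of all autosomal genes. The summit nearest to the sex-1 start was 7945 bp away and is the nucb-1 peak, and the one nearest to sdc-2 was 3356 bp away with a signal value of 129. For xol-1 the nearest was 4707 bp away (249), and the stronger summit shown above, with 733, lay at -4910 bp from its start. These are 2 summits of the same listed region. The tRNA-Arg gene C18A11.t2 lies closer to them than xol-1, at 79 and 282 bp. The nearest summits to ceh-39, sdc-1 and fox-1 were 32400, 65888 and 71651 bp away.

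The recruitment word GCGCAGGG was more frequent at X summits than at those of any autosome. It lay within 50 bp of the summit at 14 of 449 X peaks (3.12%, 1.87 to 5.17) and at 1 of 2137 autosomal peaks (0.0468%), a difference of 3.07 points (1.80 to 5.12). Replicate 1 gave 14 X regions and replicate 2 gave 15, each against 1 on the autosomes. The word itself was only a little more common on X, in 0.0388% of all windows of the same length that tile X and in 0.0263% of those that tile the autosomes. Counted the other way, 23 of its 81 occurrences on X (28.4%, 19.7 to 39.02) lay within 100 bp of an IDR summit, against 3 of 233 on the autosomes (1.29%, 0.439 to 3.72), which were all on III. The difference was 27.1 points (18.1 to 37.8). Some occurrences share a summit, since the 23 lie near 19 X peaks and the 3 near 2 autosomal peaks. The intervals treat each occurrence as separate.

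**Figure D5:**
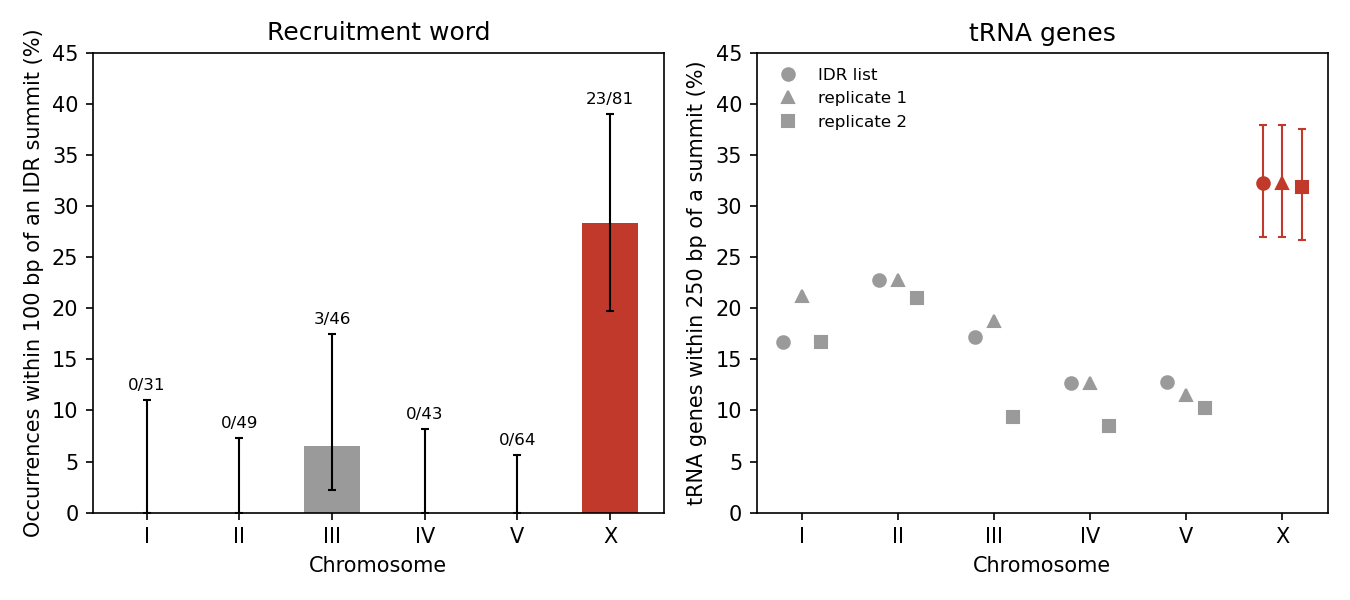
Left, share (%) of the occurrences of the dosage compensation recruitment word that lie within 100 bp of an IDR summit, by chromosome, with counts above Wilson 95% intervals. Right, share (%) of tRNA genes within 250 bp of a summit in the IDR list and in each replicate, with Wilson 95% intervals on X; X is highest in both panels, at 28.4% and 32.2%.

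Within 100 bp of the summit the word was found at 19 X peaks, and they were strong. Their median signal value was 614 (155 to 861), against 131 for the other 430 X peaks. In replicate 1 the medians were 298 and 65.1, and in replicate 2 they were 311 and 68.7. All 19 had a −log10 q of at least 2, and 14 were among the strongest 20% of all peaks. The strongest lay in an intron of mom-1, the worm homologue of Porcupine, which acts in Wnt secretion, with 411 and 450 in replicates 1 and 2 at chrX:6296628. The Y41G9A.17 intron had 407 and 427, the W02H3.3 side 419 and 412, and the nspc-17 side 413 and 391. An intergenic region nearest to F22H10.2 had 424 and 384. The gtr-1 side had 317 and 434, and the xol-1 upstream region had 364 and 376.

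By location, 11 of these 19 peaks were intergenic, 4 intronic, 3 in promoters (gcc-1, apm-3 and R04E5.9) and 1 in a coding exon, that of the polyketide synthase pks-1 (298 and 310). Further intergenic ones had as nearest gene start that of F20B6.9 (287 and 311), ins-39 (240 and 284), T24D8.6 (245 and 243) and col-185 (206 and 189). The weakest 5 had pooled signal values of 155 to 222, near dpy-23, at R04E5.9, in Y41G9A.17, near B0302.2 and in egl-17. A pair of these peaks in Y41G9A.17 lay 206 bp apart, so the 19 peaks mark 18 places. Neighbouring places were 148 to 2420 kb apart (median 867 kb), from chrX:489970 to chrX:17181425.

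The word was frequent among strong X peaks outside promoters. This group was added after seeing the data and has the traits just described for the word peaks. Its counts are therefore a description and not a test. Among the strongest 20% of all peaks, 64 were on X, and 32 of them lay in promoter windows against 76.2% on the autosomes. Of the other 32 on X, 12 (37.5%) held GCGCAGGG within 100 bp, against 1 of 108 (0.926%) on the autosomes, a difference of 36.6 points (21.4 to 53.8). The same count was 12 of 28 in replicate 1 and 12 of 31 in replicate 2, against 1 of 108 and 1 of 111. With 1 mismatch allowed, 7 more of the 32 on X held it (21.9%), against 10 of the 108 on the autosomes (9.26%). The remaining 13 on X had neither. The strongest intergenic X peak, nearest to K02D3.1 (419 and 468 at chrX:13700856), and that nearest to F19H6.5 (403 and 415) lack an exact match within 100 bp.

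Below the IDR limit the word was rare, as it is in all windows of the same length. None of the 6600 X candidates outside the list held it within 50 bp of the summit, and 1 of 20814 autosomal ones did. The count on X allows a share of up to 0.0455%. That limit lies above the 0.0388% of all X windows, so these candidates cannot be told from X sequence as a whole. Within 100 bp of any pooled candidate, IDR peaks included, were 26 of the occurrences on X and 8 on the autosomes, against 23 and 3 near IDR peaks. On the autosomes, the peaks with the word within 100 bp were an intron of dhc-4 on III (191 and 157) and the promoter of sma-2 on III (121 and 107). Subunits of the dosage compensation complex were not measured here. Whether immunoprecipitation from an untagged strain enriches these regions was not tested.

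The words known from earlier results were not more frequent on X. CTGCGTCTC lay within 50 bp of 10 X summits (2.23%) and 4.49% of autosomal ones (difference -2.27 points, -3.66 to -0.274), and its share of all X windows was also lower (0.174% against 0.437%). The difference was not called with replicate 1 alone (-1.76) or in the stronger 50% of peaks (-1.82), nor at a −log10 q of at least 2 (-1.80) or within 25 bp (-1.09). ACGCGC (6.68% against 9.45%), ACACTC (10.02% against 11.8%) and GAGAGAGA (2.67% against 3.14%) did not differ by the rule, although ACGCGC was called lower on X within 25 bp (-2.64 points, -4.28 to -0.397). Their shares of all windows were, in that order, 0.999%, 3.30% and 0.553% on X and 1.29%, 2.84% and 0.688% on the autosomes. Both strands were searched, and ACGCGC can share bases with other words. GC content in the summit windows averaged 40.4% on X, above the 38.7% to 39.8% of the autosomes, while the whole X has 35.2%.

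Transfer RNA genes on X lay near a summit more often than autosomal ones. X holds 276 of the 612 annotated tRNA genes (45.1%), and 89 of them (32.2%, 27.01 to 37.97) had a summit within 250 bp, against 54 of 336 (16.1%) on the autosomes and 23.4% of all. The difference was 16.2 points (9.39 to 22.9), with 32.2% on X in replicate 1 and 31.9% in replicate 2. Some of these genes share a summit, since the 89 on X lay beside 74 peaks (16.5% of X peaks). The 54 on the autosomes lay beside 52 peaks (2.43% of autosomal peaks). The intervals for tRNA genes treat each gene as separate. These 74 X peaks were of ordinary strength, with a median signal value of 133. In all, 27 lay in introns, 24 in intergenic sequence, 12 in promoters and 11 in non-coding genes. Without peaks near tRNA genes the promoter share was 36.0% on X and 49.5% on the autosomes, and the intergenic share 37.6% and 22.1%.

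The strongest of these was at C04E7.t1, a tRNA-Leu gene (chrX:353255-353336), with 243 and 224, in the window of the sor-3 promoter. R04A9.t1, a tRNA-Gln gene in an intron of ZK1193.2, had 137 and 176. The neighbours M02F4.t1 (tRNA-Gly) and M02F4.t2 (tRNA-Glu) shared a summit with 163 and 133. R04D3.t2, whose summit is shown above, had 135 and 140. No single amino acid stood behind the count, since 19 of the families in the RefSeq annotation had at least 1 X gene near a summit, led by tRNA-Arg (9 of 27) and tRNA-Glu (9 of 23), while tRNA-Trp had 0 of 5. The B box word GTTCGANNC lay within 50 bp of 18 X summits (4.01%) against 1.40% of autosomal ones (difference 2.61, 1.03 to 4.88), beside 0.677% of all X windows. Apart from that at C18B12.4, these X summits lay within 30 bp of a tRNA gene. On X this is thus not a result separate from that for tRNA genes.

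The difference was seen among tRNA genes with identical copies. Of the X tRNA genes with an identical copy elsewhere in the genome 80 of 219 (36.5%) lay near a summit, against 42 of 250 (16.8%) on the autosomes, a difference of 19.7 points (11.8 to 27.5). Of those with a unique sequence it was 9 of 57 (15.8%) against 12 of 86 (13.95%), a difference of 1.84 points (-9.62 to 14.8). Whether the 2 differences differ from each other was not tested. How reads that match several copies were placed is not given in the sources used here, and its part in the result was not tested. Other small RNA genes showed little on X. MicroRNA genes had 0 of 74, which allows up to 4.05%, against 6.95% on the autosomes and 4.98% of all, and V also had none. Small nucleolar RNA genes had 2 of 33 on X, D2021.6 (97.1 and 80.3, the sdha-1 promoter peak) and C53B7.8, against 59 of 313. The only snRNA gene of 3 was M163.13 (55.8 and 55.1).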

How the data were processed

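ChIP-seq of tagged T20F7.1 was available as 4 peak lists on ce11, 1 for each of the 2 replicates, 1 for the pooled replicates and 1 thresholded by IDR. The signal value, the −log10 q-value and the summit offset are the authors', as deposited, and the replicates were pooled by the authors for the last 2 lists, per the texts deposited beside them. Neither the aligner nor the peak caller is named in the labels or headers, and the scale of the signal is not given in the sources used here. Depth is unknown, so precision is set by the number of peaks alone.

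Summits were start plus offset. Genes came from Ensembl release 115, and tRNA names from RefSeq for 607 of 612 genes, on the same assembly. Each summit had 1 location, with promoter windows first, then UTRs and coding exons, introns, genes of other types and, last, intergenic sequence. Shares carry Wilson and differences Newcombe 95% intervals. The computations used Python 3.11.15, numpy 2.4.6, pandas 2.3.3, scipy 1.17.1 and matplotlib 3.10.9, and were tested on simulated data. The members, words and 24 gene lists were chosen with earlier results of these data known. The genes named are those of the 25 strongest X promoter peaks, the 3 strongest peaks of each other location where a result turns on them and otherwise the strongest, up to 3 members a list (more where few are called), X-linked sex and dosage genes, and RNA genes with the strongest near summits. Alternatives were either replicate alone, stronger peaks, other windows and distances.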

Additional observations from a re-analysis of the deposited data

How the results depend on the processing

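Over 24 results, 136 alternatives were computed, of which 123 left the call as it was. The sign changed in 8, in 4 results that were called in neither setting (3′ UTR share, replicate agreement, snRNA genes and GAGAGAGA), and in 0 that were called. The shares of promoter, intergenic, mid-chromosome, tRNA and GCGCAGGG peaks, and the shared promoters, kept their direction and call in every setting of window, distance, strength and replicate, but the promoter share (-0.526 as a difference of ratios), the intergenic share (0.151) and the shared promoters (-0.614) did not pass once scaled by the share of sequence. The lower signal of X was no longer called in the stronger 50% of peaks (-7.23 points) or at a −log10 q of at least 2 (-7.01). Calls appeared for replicate agreement with summits within 50 bp (-5.81), and for genes with a promoter peak in the stronger 50% (-2.05), at a −log10 q of at least 2 (-2.08) and with the narrow promoter window (-1.44). The causes were not tested. Small nucleolar RNA genes were called lower on X within 100 bp (-13.3) and 500 bp (-15.2) but not within 250 bp, and ACGCGC within 25 bp (-2.64). The comparisons without tRNA peaks, of kept candidates, of shared promoters and scaled by sequence, and the alternatives for position, were added after seeing the data. No paired analysis was possible because there is 1 group. Lists of few genes, and the unknown read depth, limit what can be said of single families.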

Other observations

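The genes carried by the transgene lay in stretches without candidates. No candidate of the pooled list lay between chrX:16820303 and chrX:16902715, around T20F7.1 (chrX:16872912-16878351), a gap of 82.4 kb that was the second longest between neighbouring candidates on X, where the median was 1.40 kb. In replicate 1 the gap was 84.6 kb and in replicate 2 it was 81.4 kb. Around unc-119 on III the gap in the pooled list was 137 kb, against a median of 1.34 kb on that chromosome. Whether regions were removed from the lists before deposit is not given in the sources used here.

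Among all 2080 words of 6 bases, chosen here by their values and so given with no test, CCCTGC lay within 50 bp of 6.68% of X summits and 1.45% of autosomal ones, ACCACT of 9.35% and 4.16%, and GCGATA of 5.57% and 1.97%. CCCTGC is part of the reverse complement of GCGCAGGG. In the other direction, ATTTTC lay at 17.6% of X summits and 25.5% of autosomal ones.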
